A study of Mus musculus with 4 samples.

Results

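The genes described are the 9 subunits of the AMPA and kainate receptors, Gria1, Gria2, Gria3 and Gria4 for AMPA receptors and Grik1, Grik2, Grik3, Grik4 and Grik5 for kainate receptors. They were chosen by gene symbol from 19938 genes that the array annotation names by a single symbol. Each of the 9 had exactly 1 probe set, none shared its probe set with another gene symbol, and all 9 lay among the 11013 genes with a mean over the arrays of at least 7.11, which is where the middle probe set of the array lies. The tissue came from C57BL/6J mouse fetuses at embryonic day 18. From embryonic day 8 to day 12, for 5 days, the dams had received ethanol by stomach injection (a 15% solution, 2.9 g/kg each day) or phosphate-buffered saline (PBS) in its place. Forebrain and hippocampus of each treatment gave 4 groups, each measured on 1 Affymetrix array. The number of fetuses or litters behind each RNA is not in the labels, so a difference between litters cannot be told apart from one between treatments or tissues. All values are the authors' log2 expression values, on which a difference of 1 is a 2-fold change.

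AMPA and kainate receptors are glutamate-gated ion channels built from 4 subunits, and they carry or tune most fast excitatory transmission in the brain. In AMPA receptors the Gria2 subunit, whose transcript is edited by an adenosine deaminase, keeps the channel nearly impermeable to calcium. In kainate receptors the subunits of Grik1, Grik2 and Grik3 form channels alone, whereas those of Grik4 and Grik5 need one of the former as a partner and raise the affinity for the ligand. In the fetal forebrain the receptors are present before most synapses have formed, and in the mature hippocampus Grik4 is known as a gene of CA3 pyramidal cells and Grik1 as one of interneurons.

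Array medians over all probe sets lay between 7.11 and 7.13, and over the 11013 genes the ethanol array of hippocampus stood at 8.57 against 8.66 to 8.68 for the rest. The median ethanol difference over all genes kept was -0.08 in hippocampus and -0.01 in forebrain, and 69.3% of genes lay below 0 in hippocampus. With arrays centred on their medians, 4803 of the 11013 genes lay below 0 there, and the median became 0.02. Of 12 kept genes of hippocampal fields and dentate gyrus, 7 read higher in hippocampus than in forebrain after PBS and 4 after ethanol. The medians were 0.02 and -0.08, or 0.03 and 0.01 with centred arrays, so this list by itself gave the tissue label little support. The dentate gyrus gene Prox1 differed by -0.16 and -0.33 in these comparisons, and Zbtb20, a hippocampal transcription factor gene, by 0.35 and 0.23. Emx2, of the same list, differed by 0.33 and 0.00. The largest differences of the list were those of Ccn3, at -1.02 and -0.54. It was the only gene of these 12 that limma called for tissue (adjusted p = 0.0394), beside 1.13% of all genes. The pan-neuronal list differed by medians of -0.01 and -0.09 in the same comparisons. The striatal projection neuron list, by contrast, read higher in hippocampus for 7 of 11 genes after PBS (median 0.17) and for 11 of 11 after ethanol (median 0.67). Limma called 2 of these 11 for tissue, both higher in hippocampus. Also higher in hippocampus after PBS were excitatory cortical neuron markers for 6 of 7 genes (median 0.24) and progenitor markers for 7 of 8 (median 0.14). Choroid plexus markers were higher for 5 of 5 (median 0.57). After ethanol these 3 counts were 1, 4 and 3. In bulk tissue, fewer cells of a type and less RNA per cell cannot be told apart.

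Of the receptor genes, Grik1 had the widest range over the arrays. The span from the lowest to the highest array was 0.18 at the median of the 9 genes and 0.19 at the median of all genes kept. Only Grik1 spanned at least 1.5-fold, as did 338 genes or 3.07% of those kept. Its span was 0.82, and 99.0% of genes kept had a span of that size or smaller. The spans of the others ran from 0.12 for Grik4 to 0.27 for Gria3, Gria4 and Grik3.

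**Figure D1:**
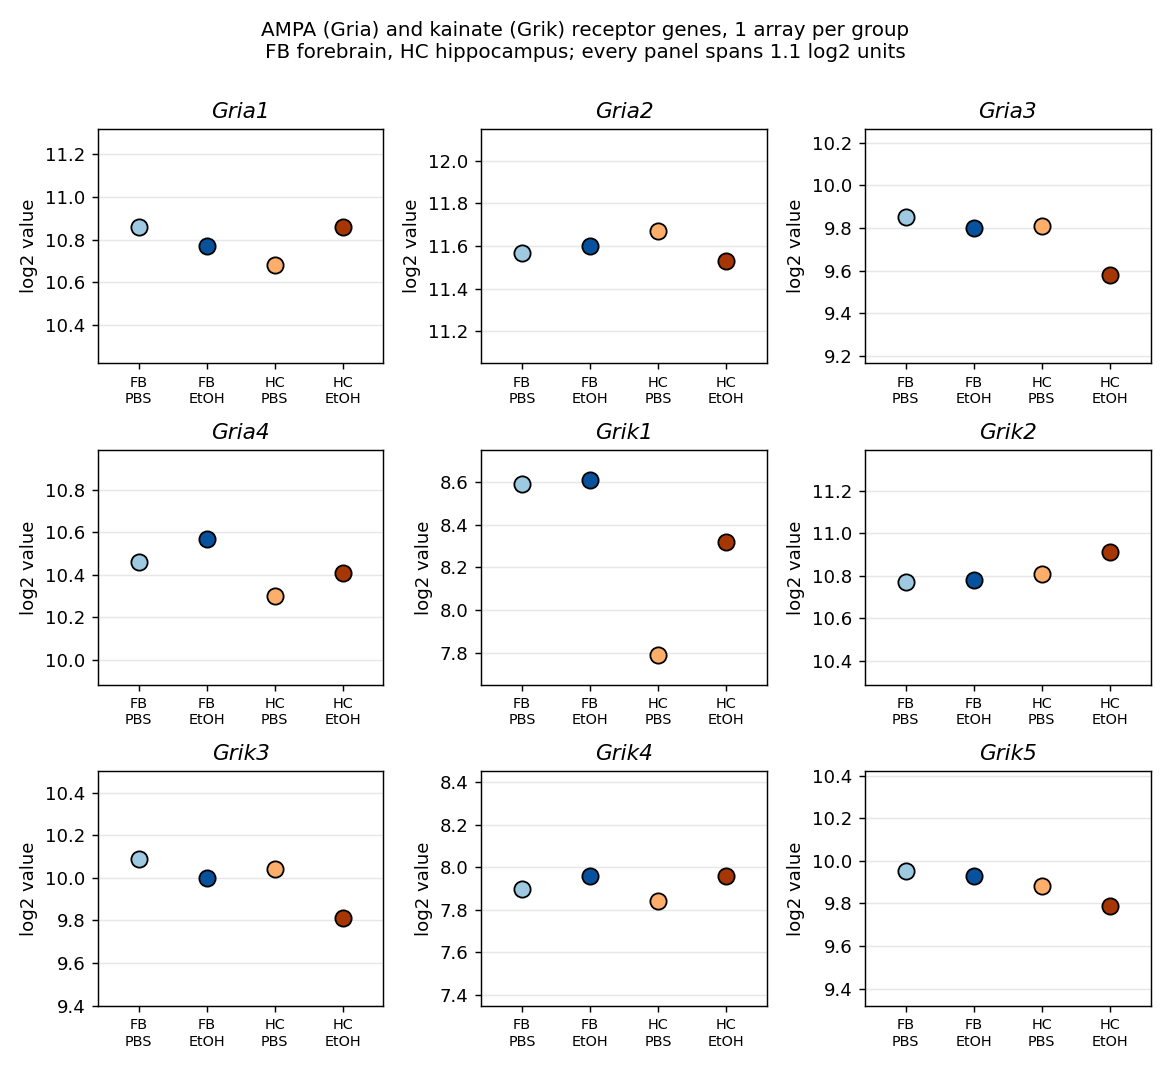
Log2 expression value (vertical axis) of each of the 9 receptor subunit genes in forebrain (FB) and hippocampus (HC) after PBS or ethanol (EtOH), 1 point per array with no replicate and no error bar. All panels have the same height in log2 units, and Grik1 is set apart by its value of 7.79 in hippocampus after PBS against 8.32 to 8.61 in the other arrays.

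Among the AMPA receptor genes, Gria1, which encodes a subunit added to synapses during plasticity, read 10.86 in forebrain after PBS, 10.77 in forebrain after ethanol, 10.68 in hippocampus after PBS and 10.86 in hippocampus after ethanol. The hippocampus array after PBS was the lowest and the other hippocampus array was level with the highest forebrain array. Ethanol minus PBS was 0.18 in hippocampus and -0.08 in forebrain for this gene.

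Gria2, whose subunit sets calcium permeability, read 11.57 and 11.60 in forebrain after PBS and ethanol, and 11.67 and 11.53 in hippocampus. Here the hippocampus array after PBS was the highest and the hippocampus array after ethanol the lowest, a difference of -0.14, while the forebrain arrays differed by 0.03. Gria3, an X-linked AMPA subunit gene, read 9.85 and 9.80 in forebrain and 9.81 and 9.58 in hippocampus. Its hippocampus array after ethanol lay below the other arrays, which were within 0.05 of each other, and the ethanol difference was -0.22 in hippocampus and -0.05 in forebrain.

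Gria4, known as a subunit gene of early development and of interneurons, read 10.46 and 10.57 in forebrain and 10.30 and 10.41 in hippocampus. It was the one AMPA gene with the same ethanol difference in each tissue, 0.11, and its hippocampus values lay 0.16 below those of forebrain after either treatment. With each array centred on its median these values became 0.21 and 0.13 for ethanol in hippocampus and forebrain, and -0.15 and -0.07 for hippocampus minus forebrain after PBS and ethanol.

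In hippocampus the AMPA genes thus read in different directions after ethanol, with Gria1 and Gria4 above and Gria2 and Gria3 below their PBS values. The ethanol difference of Gria1 exceeded that of Gria2 by 0.32, and the same contrast in forebrain was -0.11. Gria1 and Gria2 each differed in opposite directions in the tissues, but neither by 0.1 or more in both, and the difference between tissues was not tested. The contrast does not change when an array is centred, and it was 0.33 and -0.13 after quantile normalization. It was picked out after the values were seen, and 1 array per group gives it no error. Over the 4 AMPA genes the median ethanol difference was -0.01 in hippocampus and -0.01 in forebrain, beside -0.08 and -0.01 over all genes kept. With centred arrays the AMPA medians became 0.09 and 0.01, beside 0.02 and 0.01.

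Among the kainate receptor genes, Grik1 and Grik4 were lowest in hippocampus after PBS, Grik1 by the wider margin. Grik1 read 8.59 in forebrain after PBS, 8.61 in forebrain after ethanol, 7.79 in hippocampus after PBS and 8.32 in hippocampus after ethanol. The forebrain arrays were alike, both hippocampus arrays were below them, and the PBS array stood farthest apart. Hippocampus minus forebrain was -0.80 after PBS, a 1.74-fold lower reading, and -0.29 after ethanol, 1.22-fold lower. The ethanol difference was 0.53 in hippocampus, a 1.44-fold higher reading, and 0.02 in forebrain. Of all genes kept, 98.4% had an ethanol difference of the same or smaller size in hippocampus, 20.9% in forebrain, and 99.4% a hippocampus-minus-forebrain difference of the same or smaller size after PBS. The hippocampus PBS array enters both the larger ethanol difference and the larger tissue difference, so these are not separate observations, and a deviation of that array alone cannot be told apart from a response to ethanol.

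Grik2, which encodes the kainate subunit of hippocampal mossy fibre synapses, read 10.77 and 10.78 in forebrain after PBS and ethanol, and 10.81 and 10.91 in hippocampus. The forebrain arrays differed by 0.01, and hippocampus after ethanol read 0.10 above its PBS array. Grik3, a subunit gene whose receptors respond only to high glutamate, read 10.09 and 10.00 in forebrain and 10.04 and 9.81 in hippocampus, which gave ethanol differences of -0.09 and -0.23. Its hippocampus array after ethanol was the lowest, as for Gria2, Gria3 and Grik5, and 50.2% of all genes kept were lowest in that array. With centred arrays 21.7% were, and of the receptor genes only Gria3 and Grik3.

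Of the high-affinity subunit genes, Grik4 read 7.90 and 7.96 in forebrain and 7.84 and 7.96 in hippocampus, so that the tissues differed by -0.06 after PBS and 0.00 after ethanol, although the gene is known as a CA3 marker in the mature hippocampus. Grik5, the widely expressed partner subunit, read 9.95 and 9.93 in forebrain and 9.88 and 9.79 in hippocampus, with ethanol differences of -0.03 and -0.09. Centring the arrays turned the hippocampus difference of Grik5 to 0.01. Over the 5 kainate genes the median ethanol difference was 0.10 in hippocampus and 0.01 in forebrain. In hippocampus it became 0.20 with centred arrays and 0.04 after quantile normalization, and in forebrain 0.03 and -0.01.

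Counted against a 1.5-fold difference, 0 of the 9 genes passed for ethanol in hippocampus, where 0.917% of all genes did, and 0 of 9 for ethanol in forebrain, where 0.0726% did. Grik1 alone was past 1.5-fold in hippocampus against forebrain after PBS, on the lower side, where 1.28% of all genes passed in either direction and 1.19% on the lower side. After ethanol 0 of 9 passed between the tissues, beside 0.69% of all genes. At 2-fold 0 of 9 passed after PBS, beside 0.254%. At a difference of 25%, Grik1 was the 1 of 9 past the line for ethanol in hippocampus, beside 9.12% of all genes. It crossed the 1.5-fold line for ethanol in hippocampus when arrays were centred on their medians (0.63) or quantile-normalized (0.61). Of all 101 genes past 1.5-fold for ethanol in hippocampus, 54 read higher and 47 lower, which became 116 and 19 with centred arrays and 88 and 31 after quantile normalization. Between the tissues after ethanol, 17 read higher and 59 lower in hippocampus, or 32 and 31 with centred arrays.

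**Figure D2:**
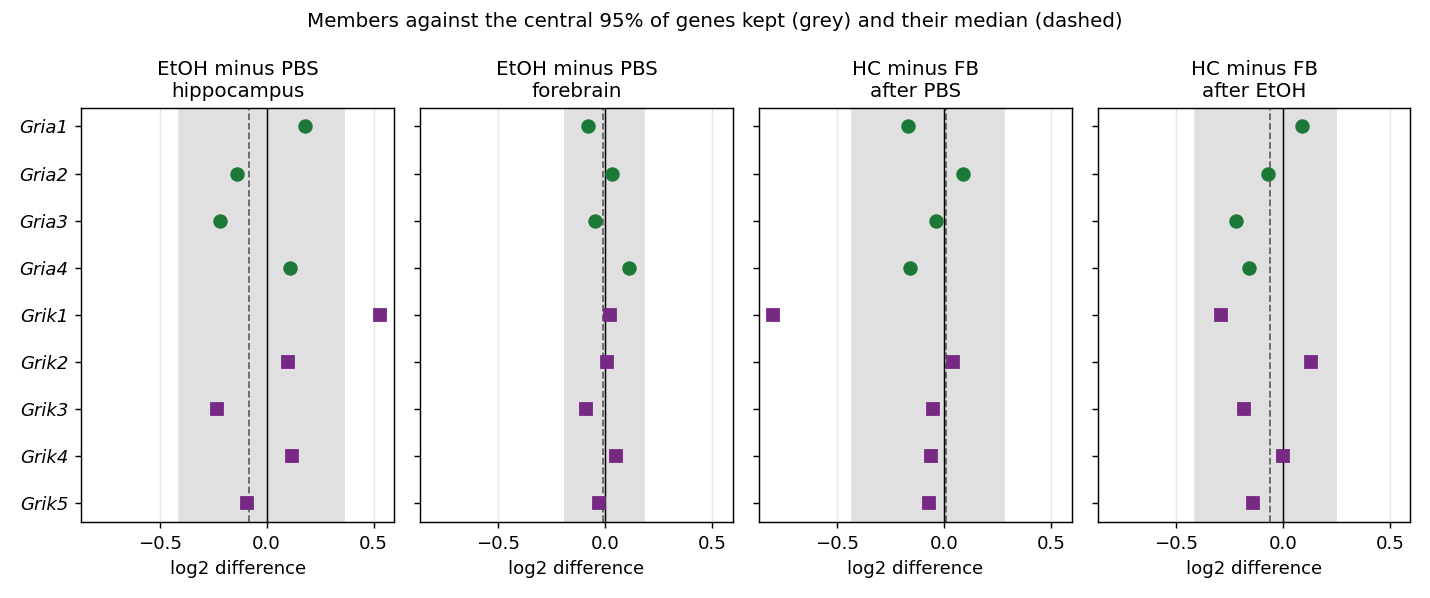
Difference in log2 value (horizontal axis) of each AMPA (green circles) and kainate (purple squares) subunit gene for ethanol minus PBS in each tissue and hippocampus minus forebrain after each treatment, 1 array against 1. Grey bands hold the central 95% of the 11013 genes kept, and only Grik1 lies outside them, at 0.53 in the first panel and -0.80 in the third, while its -0.29 in the fourth lies within a band that ends at -0.41.

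Over both tissues, limma with treatment and tissue as additive terms and Benjamini-Hochberg adjustment over all genes kept called 0 of the 9 genes for ethanol at an adjusted p of 0.05. It called 0% of all genes, and at an unadjusted p of 0.05 it gave 1 of the 9 genes, against 9.76% of all genes. That gene was Grik3, with an ethanol estimate of -0.16 (SE 0.0665, limma adjusted p = 0.511). For Grik1 the estimate was 0.28 (SE 0.122, 95% interval -0.01 to 0.56, limma adjusted p = 0.521), and for Gria3 it was -0.14 (95% interval -0.31 to 0.03). The narrowest interval belonged to Gria2, from -0.18 to 0.06. Gria1, Gria4, Grik2, Grik4 and Grik5 had estimates from -0.06 to 0.11, with limma adjusted p from 0.541 to 0.816. The fit leaves 1 residual degree of freedom, the arrays of a treatment are different tissues, and any unequal response of the tissues enters as its error. That error is also drawn toward the trend over all genes kept, so an interval is not the gene's own spread alone.

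For tissue over both treatments the same limma fit also called 0 of 9, where it called 1.13% of all genes. At an unadjusted p of 0.05 it gave 2 of the 9, both lower in hippocampus, against 15.1% of all genes in either direction and 11.9% on the lower side. Grik1 was lower in hippocampus by an estimate of -0.54 (SE 0.122, 95% interval -0.83 to -0.26, limma adjusted p = 0.098). It was below forebrain in 2 of 2 treatments, and the adjusted p was 0.0375 after quantile normalization and between 0.0375 and 0.160 over the alternatives. Gria4 was lower by an estimate of -0.16 (SE 0.0562, limma adjusted p = 0.239). Grik2 had the highest estimate, 0.09, with a 95% interval from -0.04 to 0.21.

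Other genes and markers were low in the same array as Grik1. That array, hippocampus after PBS, was the lowest for 19.9% of all genes kept, or 28.9% with centred arrays. Of the receptor genes, Gria1, Gria4 and Grik4 were also lowest there, and with centred arrays Grik5 too. By the distance between 4-array patterns after each gene's mean was taken off, the 3 nearest genes were Igfbp5, a secreted binding protein of insulin-like growth factors, at 0.083, Zim1, an imprinted zinc finger gene, at 0.087, and Slc35g2, a solute carrier family gene, at 0.107. Igfbp5 read 9.90 and 9.83 in forebrain after PBS and ethanol and 8.99 and 9.56 in hippocampus. With 4 arrays a near pattern is only a description, and 2 of these 3 genes remained among the nearest after quantile normalization.

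**Figure D3:**
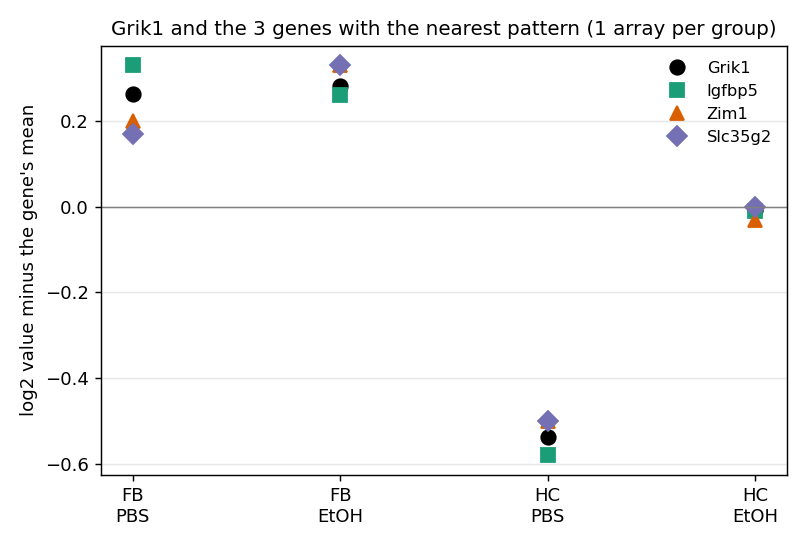
Log2 value minus the gene's own mean over 4 arrays (vertical axis) for Grik1, Igfbp5, Zim1 and Slc35g2, 1 point per gene and array (FB forebrain, HC hippocampus). For each of the 4 genes the hippocampus array after PBS is the lowest, and the hippocampus array after ethanol lies between it and the forebrain arrays. The other genes were chosen for their nearness to Grik1 over these same arrays, so the shared order follows from that choice.

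Several marker lists shared that pattern in part. As a background, 5236 of the 11013 genes kept read lower in hippocampus than in forebrain after PBS, and 3380 read higher after ethanol within hippocampus. Thalamic markers, a list that includes the vesicular transporter gene Slc17a6 described below, read lower in hippocampus after PBS for 6 of 6 genes (median -0.45). Within hippocampus 6 of 6 read higher after ethanol (median 0.32). Their summed level on the log2 scale in the hippocampus arrays was 10.85 with PBS and 11.30 with ethanol, against 11.31 to 11.58 in forebrain. Slc17a6 alone read 9.76 and 10.04 in the hippocampus arrays, and the brightest genes weigh most in such sums. Of 10 GABAergic lineage genes, 7 read lower in hippocampus after PBS (median -0.10). The 10 differences ranged from -0.98 for Sst, the somatostatin gene of interneurons, to 0.24 for Dlx6. Within hippocampus 8 read higher after ethanol (median 0.24), while Lhx6 (-0.22) and Npy (-0.30) read lower. The summed level of this list was 12.76 in hippocampus after PBS, 12.99 after ethanol and 12.92 to 12.99 in forebrain. Meningeal fibroblast markers were lower for 6 of 6 genes after PBS (median -1.12), with summed levels of 10.40 and 10.82 in hippocampus after PBS and ethanol against 11.36 to 11.55 in forebrain. Astrocyte markers were lower for 7 of 7 after PBS (median -0.25), at 12.22 against 12.46 to 12.55 in the other arrays. Other lists also differed between the hippocampus arrays. Striatal projection neuron markers read higher there than after PBS for 11 of 11 genes (median 0.46), with summed levels of 12.75 against 12.29, and 12.02 to 12.09 in forebrain. Excitatory cortical neuron markers read lower for 6 of 7 (median -0.56), at 12.74 against 13.12, and 12.80 to 12.89 in forebrain. Choroid plexus markers read lower for 5 of 5 (median -0.26), at 12.56 against 12.77, and 12.21 to 12.32 in forebrain. In both of these lists the hippocampus array after PBS was the highest of the 4. The part of these cell types in the values of Grik1 and of the other receptor and partner genes was not tested.

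The partners of the receptors were described from lists of genes chosen by function. As a background for limma's counts in these lists, 9.76% of all genes had an unadjusted p under 0.05 for ethanol and 15.1% for tissue. At an adjusted p of 0.05 the shares were 0% and 1.13%. Of 16 measured AMPA receptor auxiliary subunit genes, 4 read higher and 12 lower after ethanol in hippocampus, where 69.3% of all genes were lower. The list's median there was -0.10, or 0.00 with centred arrays and -0.03 after quantile normalization. In forebrain 9 read higher and 7 lower (median 0.01). Between the tissues after ethanol, 16 of 16 read lower in hippocampus (median -0.20, or -0.12 with centred arrays), beside 69.6% of all genes. Centring moved the median of all genes kept in that comparison from -0.06 to 0.03. The smallest of the 16 differences, -0.06 and -0.07, lie within that shift, so not all 16 stay lower with centred arrays. Cnih3, a cornichon that slows AMPA receptor closing, read 8.88 and 8.35 in hippocampus with PBS and ethanol, a difference of -0.53. Cacng7, a transmembrane AMPA receptor regulator, differed by -0.38, and Cacng3, of the same family, by 0.41. Cacng3 read 7.68 in hippocampus after PBS and 8.10 to 8.27 in the other arrays, so its lowest array was that of Grik1. In this list limma called 0 of 16 for ethanol and 0 of 16 for tissue at an adjusted p of 0.05, with 2 and 5 at an unadjusted p of 0.05.

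Of 6 kainate receptor auxiliary and binding protein genes, 4 read higher after ethanol in hippocampus (median 0.11, or 0.21 with centred arrays) and 3 in forebrain (median 0.00). Neto1, an auxiliary subunit that slows kainate receptor kinetics, read 10.30 and 10.31 in forebrain after PBS and ethanol and 10.58 and 10.80 in hippocampus. It was higher in hippocampus by limma's estimate of 0.39 (SE 0.0675, adjusted p = 0.0497), a call lost in 3 of 6 alternatives, with adjusted p from 0.0105 to 0.128. C1ql3, a secreted synaptic protein of the C1q family, was lower in hippocampus by an estimate of -0.55 (SE 0.0896, limma adjusted p = 0.044), a call lost in 3 of 5 alternatives, with adjusted p from 0.0124 to 0.0807. Neto2, the other auxiliary subunit of this kind, read 10.95 to 10.99 in all 4 arrays. C1ql2, a mossy fibre relative of C1ql3, differed by 0.49 after ethanol in hippocampus. It read 7.01 and 7.13 in forebrain after PBS and ethanol and 6.91 and 7.40 in hippocampus. Its level was thus close to the bound of 7.11 for keeping a gene, and below it in both PBS arrays. Limma called 0 of the 6 for ethanol, with 1, C1ql2, at an unadjusted p of 0.05.

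Among 21 scaffold and trafficking genes, 13 read higher and 8 lower after ethanol in hippocampus (median 0.01, or 0.11 with centred arrays), and 11 and 10 in forebrain (median 0.01). The largest differences in hippocampus were Akap5, a kinase anchor at synapses, at 0.41, Lrrtm1, a synaptic adhesion gene, at -0.41, and Nsf, the fusion ATPase that binds the Gria2 subunit, at 0.40. Nsf read 10.39 and 10.50 in forebrain and 9.79 and 10.19 in hippocampus, and limma gave it a tissue estimate of -0.46 (SE 0.08, adjusted p = 0.0497), a call lost in 3 of 6 alternatives, with adjusted p from 0.0101 to 0.114. It was 1 of 21 called for tissue, and 0 of 21 were called for ethanol, with 2 at an unadjusted p of 0.05. Dlg4, which encodes the postsynaptic scaffold PSD-95, differed by 0.08 in hippocampus and 0.04 in forebrain after ethanol.

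The editing enzyme genes that act on glutamate receptor transcripts did not share a direction. Adarb1, whose enzyme edits Gria2, differed by -0.04 in hippocampus and -0.12 in forebrain after ethanol, Adar by 0.10 and 0.03, and Adarb2, a relative without known editing activity, by 0.48 and 0.05. Limma called 0 of 3 for ethanol, with 1 at an unadjusted p of 0.05. The arrays measure transcript level and not editing.

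**Figure D4:**
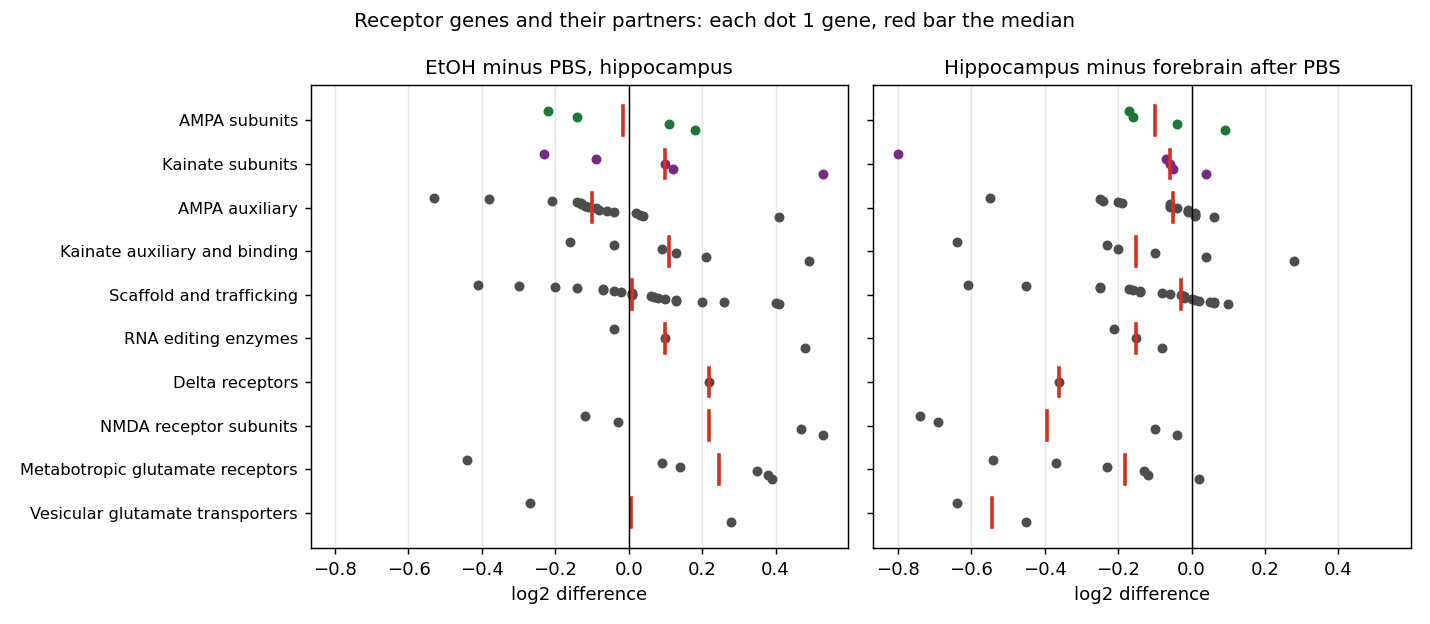
Log2 difference (horizontal axis) of each gene for ethanol minus PBS in hippocampus (left) and hippocampus minus forebrain after PBS (right), by list, 1 array against 1, with the list median as a red bar. AMPA and kainate subunits lie near 0 apart from Grik1, and the vesicular transporters and part of the NMDA receptor subunits lie farther to the left in the right panel.

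Among the other glutamate receptor and transporter genes, limma called members of the NMDA receptor and vesicular transporter lists between the tissues, beside 1.13% of all genes. Of 4 kept NMDA receptor subunit genes, Grin2d and Grin3a were lower in hippocampus by limma's estimates of -0.57 (adjusted p = 0.0417) and -0.65 (adjusted p = 0.027). Grin2d lost its call in 3 of 5 alternatives, with adjusted p from 0.00915 to 0.0715, and Grin3a in 1 of 6, with adjusted p from 0.00281 to 0.0544. The vesicular glutamate transporter genes Slc17a6 and Slc17a7, which mark glutamatergic neurons, were lower by -0.42 (limma adjusted p = 0.0372) and -0.62 (limma adjusted p = 0.0244). The first lost its call in 2 of 6 alternatives, with adjusted p from 0.00415 to 0.0785, and the second in 0 of 5. Ethanol minus PBS in hippocampus and forebrain was 0.53 and 0.34 for Grin3a and 0.47 and 0.24 for Grin2d. It was -0.12 and 0.11 for Grin2a, and -0.03 and -0.01 for Grin2b. The transporter genes differed in opposite directions, Slc17a6 by 0.28 and 0.23 and Slc17a7 by -0.27 and -0.30. For ethanol limma called 0 in either list, with 2 in each at an unadjusted p of 0.05. Of 6 metabotropic receptor genes, 5 read higher after ethanol in each tissue (medians 0.25 and 0.19). Of the 11013 genes kept, 3380 read higher after ethanol in hippocampus and 5077 in forebrain. Limma called 0 of the 6 metabotropic genes for ethanol and 0 for tissue. At an unadjusted p of 0.05 it gave 4 for ethanol and 3 for tissue, beside 9.76% and 15.1% of all genes. The delta receptor gene Grid1 read 9.0 and 9.01 in forebrain and 8.64 and 8.86 in hippocampus, again lowest after PBS. No test compared these groups with the AMPA and kainate genes.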

How the data were processed

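The authors' deposited log2 expression values of 4 Affymetrix arrays were used as they stand. Per the submitters' processing notes the tool was MAS5. Its version and the steps of background correction, summarization and scaling were not given in the sources used here. Per the labels' protocols, cRNA was made from 6 ug of total RNA. No label states the log2 scale, which was inferred from a range of 1.58 to 13.96. Genes are not centred. Of 35557 probe sets, 21789 had 1 gene symbol in the platform annotation. A gene was represented by its brightest probe set on average, and kept where that average was at least 7.11, the median over all probe sets. Symbols of the 9 receptor genes matched a RefSeq table of GRCm38.p6. No genome build of the array design was known here, so no positions are reported, and protein and probe sequences were not used here. Files hold no detection calls, and precision is limited by having 4 arrays.

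Differences within a pair of arrays have no test and were counted at 1.5-fold. Limma 3.58.1 in R 4.3.3 fitted treatment and tissue additively over 11013 genes (eBayes with a trend, Benjamini-Hochberg at 0.05), after it was tested on simulated data. Its p-values measure only the spread between these arrays. The eBayes step draws the error of each gene toward a trend over all genes kept, so SEs and intervals are not a gene's own spread alone. Other steps used Python 3.11.15 with pandas 2.3.3, numpy 2.4.6 and, for plots, matplotlib 3.10.9. Alternatives were median centring, quantile normalization, a 75th percentile filter, no filter, the mean of a gene's probe sets, a 25% difference or 2-fold in place of 1.5-fold, and eBayes without a trend. The receptor genes and all lists were chosen with earlier results of these data known. Named were all 9 receptor genes, members of the partner and marker lists with the largest ethanol differences (up to 5 per list and tissue), and the 3 nearest patterns for receptor genes spanning 1.5-fold. Prox1, Zbtb20, Emx2, Ccn3, Dlg4, Neto2 and partner genes called by limma were named outside or beside that rule after their values were seen. Some listed genes are not analysed here.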

Additional observations from a re-analysis of the deposited data

How the results depend on the processing

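Each receptor gene has 1 probe set, so the choice of probe set left its values as they were. Of 276 recomputed values or adjusted p for the 9 genes, 273 kept their side of the threshold and 3, all of Grik1, moved past it. That count is no measure of stability. The filters and the mean of probe sets could not change a difference of these genes, and most of the other values lay far from the threshold. Under median centring and quantile normalization 1 receptor gene (Grik1) passed 1.5-fold for ethanol in hippocampus in place of 0, as 1 did at a 25% difference, and quantile normalization gave 1 limma call for tissue in place of 0. The 75th percentile filter drops Grik1 and Grik4, so the single gene past the fold between tissues after PBS became 0, as it did at 2-fold. Small differences changed sign with the scaling for Grik5 in hippocampus, Grik2 in forebrain, and Gria2 and Grik4 between the tissues after ethanol.

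Counts over all genes moved as follows. For ethanol in hippocampus the genes past 1.5-fold became 53 with the 75th percentile filter, 208 without a filter, 1004 at a 25% difference and 7 at 2-fold. For ethanol in forebrain the 8 became 2, 46, 58 and 0 in the same order, and its split of 5 higher and 3 lower became 6 and 1 with centred arrays. Between tissues after PBS the 141 became 37, 237, 671 and 28, and after ethanol the 76 became 25, 159, 735 and 5. Limma's 0 genes for ethanol became 2 with centred arrays, 14 after quantile normalization and 7 with the stricter filter. Its 124 genes for tissue became 66, with 21 higher and 45 lower in place of 12 and 112, with centred arrays, 423 after quantile normalization, 37 without a filter and 27 without a trend. No replicate block could be fitted, because each group has 1 array and no numbered replicates, and the limma fit already has tissue as a term. Leaving out an array leaves no comparison with an error. The pseudocount alternatives were not run, since the values are on the log2 scale.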
